A study of Mus musculus with 18 samples.

Results

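The hairpins of miR-322, miR-503, miR-351, miR-542, miR-450a and miR-450b, 7 in all, lie close together on the mouse X chromosome and form a miRNA cluster. Its members were taken by name from the deposited miRNA table as 10 mature miRNAs, of 1907 in the table as a whole. All 10 passed the filter on low counts that left 550 miRNAs for testing. They are mmu-miR-322-5p and mmu-miR-322-3p, mmu-miR-503-5p and mmu-miR-503-3p, mmu-miR-351-5p and mmu-miR-351-3p, mmu-miR-542-5p and mmu-miR-542-3p, mmu-miR-450a-5p and mmu-miR-450b-5p.

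Small RNA from NIH/3T3 cells, a mouse embryonic fibroblast line, was sequenced as input or as the fraction bound by an anti-pseudouridine (Ψ) antibody in an immunoprecipitation (IP); Ψ is an isomer of uridine. Libraries came from wild type (WT) cells or from cells that carried a knockdown of Pus1, the gene of a Ψ synthase, for 3 days (KD3) or 6 days (KD6). Each of the 6 groups had 3 libraries, with replicates lettered A, B and C, so that there were 18 libraries in all. No source used here says whether the letters mark separate cultures, so p-values measure only the spread between these libraries, which may be technical, and Pus1 mRNA is not part of a miRNA table.

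miRNAs are cut from hairpins in a primary transcript, first by Drosha in the nucleus and then by Dicer in the cytoplasm. Each hairpin can yield a 5p and a 3p arm, and the arm held by an Argonaute protein pairs with target mRNAs mainly through its seed near the 5′ end. Clustered hairpins are commonly made from a shared primary transcript. miR-322-5p and miR-503-5p belong to the extended miR-15/16 family, known for repressing cyclins and other genes of the cell cycle, and both are known to accumulate during muscle differentiation. miR-351-5p is a relative of miR-125, the mammalian lin-4 family. miR-450a, miR-450b and miR-542 share the locus without sharing those seeds.

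The hairpins all lay on the minus strand in GRCm38, the assembly also called mm10, and spanned 6353 bases from the 5′ end of Mir322 to the 3′ end of Mir450b. Mir322 (chrX:53054255-53054349), Mir503 (chrX:53053984-53054054) and Mir351 (chrX:53053255-53053353) came first in the direction of transcription, and Mir503 began 295 bases after Mir322. Mir542 (chrX:53049403-53049487) followed after a gap of 3767 bases. Mir450-2 (chrX:53048299-53048367), Mir450-1 (chrX:53048154-53048244) and Mir450b (chrX:53047997-53048078) closed the cluster. In GENCODE M21 no hairpin overlapped another annotated gene. The lincRNA Gm28730 (chrX:53051194-53053159) lay between Mir351 and Mir542 on the same strand, and the processed transcript C430049B03Rik (chrX:53055046-53057190) lay upstream of Mir322. The mature miR-450a-5p is encoded by both Mir450-1 and Mir450-2, so its reads cannot be assigned to either hairpin.

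The mature sequences below are those of RefSeq for GRCm38.p6, written 5′ to 3′ with the seed, bases 2 to 8, in capitals. They are shown because some members share a seed with each other or with miRNAs of other loci, and the results below set such pairs side by side. The first set shares bases 2 to 7, and miR-322-5p shares bases 2 to 8 with miR-16-5p and miR-497a-5p, which come from other loci.
mmu-miR-322-5p: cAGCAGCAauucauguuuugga
mmu-miR-503-5p: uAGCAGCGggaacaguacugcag
mmu-miR-16-5p: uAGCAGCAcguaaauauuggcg
mmu-miR-497a-5p: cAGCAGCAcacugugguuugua
The next pair shares bases 2 to 8, and miR-125a-5p is encoded elsewhere.
mmu-miR-351-5p: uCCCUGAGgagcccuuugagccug
mmu-miR-125a-5p: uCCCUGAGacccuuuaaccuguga
The miR-450 pair differed at 7 positions, counted from 1 at the 5′ end of miR-450a-5p, namely G7A, A8G, G10A, A18G, U20A, A21U and U22A.
mmu-miR-450a-5p: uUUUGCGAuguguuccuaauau
mmu-miR-450b-5p: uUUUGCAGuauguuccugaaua
The remaining members each had a seed held by no other member and by none of the relatives.
mmu-miR-322-3p: aAACAUGAagcgcugcaacac
mmu-miR-503-3p: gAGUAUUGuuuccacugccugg
mmu-miR-351-3p: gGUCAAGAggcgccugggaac
mmu-miR-542-5p: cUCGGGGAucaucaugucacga
mmu-miR-542-3p: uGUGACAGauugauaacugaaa

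Depth ranged from 3989031 to 15099781 mapped reads in all libraries except KD6 input replicate A, which had 241109. In that library 3 reads, the limit that a count of 0 allows, already amounted to 14.8 CPM, the read count scaled by library size. Levels below are CPM scaled with the median-ratio factors described under processing. Each read stands for 1 whole miRNA of 21 to 24 bases in all members, so CPM needs no correction for length between them. How evenly library preparation captured different sequences was not tested. Order and abundance between miRNAs below therefore refer to reads, not to molecules in the cells. miR-21a-5p, abundant in fibroblasts, ranged from 54329 to 533264 CPM. Of 4 markers of other cell types, miR-124-3p (neurons) and miR-142a-5p (blood) had a median of 0 CPM. The summed level of the 4 was 22.8 to 93.8 CPM over the input libraries and 90.6 to 373 CPM over the IP libraries, most of it miR-122-5p of liver, and its part in the results below was not tested.

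In WT input the cluster was led by miR-351-5p, with 1521, 1427 and 1409 CPM in replicates A, B and C (mean 1452 ± 60.3, SD, n = 3). It lay above every other member in each of these libraries. miR-542-3p (666 ± 31.2 CPM) and miR-322-3p (643 ± 85.7 CPM) came next, and the ranges of these neighbours overlapped. miR-450a-5p (503 ± 19.1 CPM) and miR-450b-5p (406 ± 16.2 CPM), neighbours in sequence and position, followed without overlap. miR-503-5p (156 ± 11.4 CPM) and miR-322-5p (134 ± 10.6 CPM), the members with the miR-15/16 type of seed, were lower still. The 3 least abundant were miR-503-3p (18.7 ± 1.89 CPM), miR-542-5p (5.81 ± 0.914 CPM) and miR-351-3p (5.32 ± 1.21 CPM), the last pair with overlapping ranges. The abundant arm was thus the 5p arm in miR-503 and miR-351 and the 3p arm in miR-322 and miR-542.

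**Figure D1:**
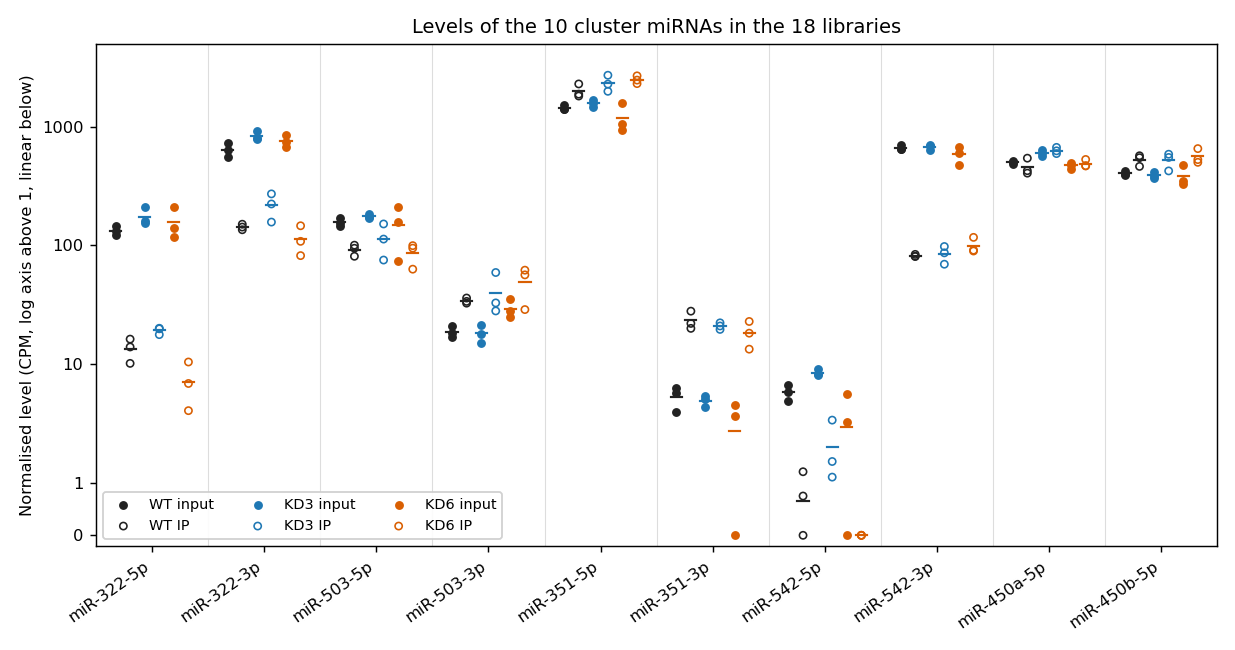
Level of each of the 10 miRNAs (CPM, log axis above 1 and linear below) in each of the 18 libraries, filled for input and open for IP, with a short line at the mean of 3 libraries. miR-322-5p, miR-322-3p and miR-542-3p have every IP library below every input library of the same condition. miR-351-3p, miR-351-5p and miR-450b-5p have every IP library above, and miR-450a-5p overlaps in all 3 conditions.

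The first comparison asked which members the Ψ antibody recovered more or less than other miRNAs in WT cells. No IP with a control antibody was analysed here, and each ratio of IP over input is relative to the other miRNAs of the library. The cluster was split. Both arms of miR-322, both arms of miR-542 and miR-503-5p were depleted from the IP, whereas both arms of miR-351 and miR-503-3p were enriched. Thus 5 of the 10 were lower and 3 higher by edgeR's quasi-likelihood test at a Benjamini-Hochberg adjusted p under 0.05, beside 37.5% of all 550 tested miRNAs that were lower and 31.5% that were higher. The IP and input libraries of 9 members did not overlap, as held for 76.0% of all miRNAs. Split calls were therefore common in the whole table, and the counts did not set the cluster apart from it. The median log2 ratio was -0.45 over the members and -0.04 over all miRNAs.

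The member with the full miR-15/16 seed, miR-322-5p, had 133, 123 and 145 CPM in WT input and 10.1, 16.2 and 13.9 CPM in WT IP. The groups lay far apart, and the IP level was 9.89-fold lower (log2 ratio -3.31 ± 0.28 SE, adjusted p = 1.15e-09). Its partner arm miR-322-3p went from 558 to 729 CPM in input to 136 to 151 CPM in IP, a 4.49-fold lower level (log2 ratio -2.17 ± 0.22, adjusted p = 2.24e-08). miR-503-5p, which shares bases 2 to 7 with miR-322-5p, differed far less, with 147 to 169 CPM in input and 81.0 to 101 CPM in IP (log2 ratio -0.76 ± 0.27, adjusted p = 0.0157).

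miR-542-3p was depleted with little spread among replicates. Its levels were 702, 647 and 649 CPM in WT input and 80.8, 84.1 and 81.0 CPM in WT IP. These are 8.12-fold apart (log2 ratio -3.02 ± 0.19, adjusted p = 1.41e-11). The scarce miR-542-5p had 67 to 74 reads per input library of the WT, but only 5, 4 and 0 in the IP libraries. It was lower in IP (log2 ratio -3.27 ± 0.63, adjusted p = 0.000134), with an SE over 3 times that of miR-542-3p.

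At the other end, miR-351-3p rose from 5.74, 6.25 and 3.96 CPM in WT input to 27.9, 22.0 and 20.0 CPM in WT IP, with 50.5 to 132.5 reads behind each value. The IP level was 4.36-fold higher (log2 ratio 2.12 ± 0.28, adjusted p = 8.97e-07). miR-503-3p was 1.82-fold higher, from 17.0 to 20.8 CPM in input to 32.6 to 36.0 CPM in IP (log2 ratio 0.87 ± 0.28, adjusted p = 0.0103). The abundant miR-351-5p went from 1409 to 1521 CPM to 1820 to 2302 CPM (log2 ratio 0.46 ± 0.19, adjusted p = 0.0324). The last is a narrow call that was lost under 8 of 14 alternatives, among them other scaling factors. The calls of miR-503-3p and miR-503-5p were lost under 3 and 2 of them.

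The miR-450 pair lay between. miR-450a-5p had 482 to 520 CPM in WT input and 407 to 545 CPM in WT IP, so its groups overlapped (log2 ratio -0.13 ± 0.16, adjusted p = 0.470). miR-450b-5p had 394 to 425 CPM in input and 464 to 571 CPM in IP, which did not overlap, yet the ratio missed the threshold (log2 ratio 0.38 ± 0.18, adjusted p = 0.0699).

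**Figure D2:**
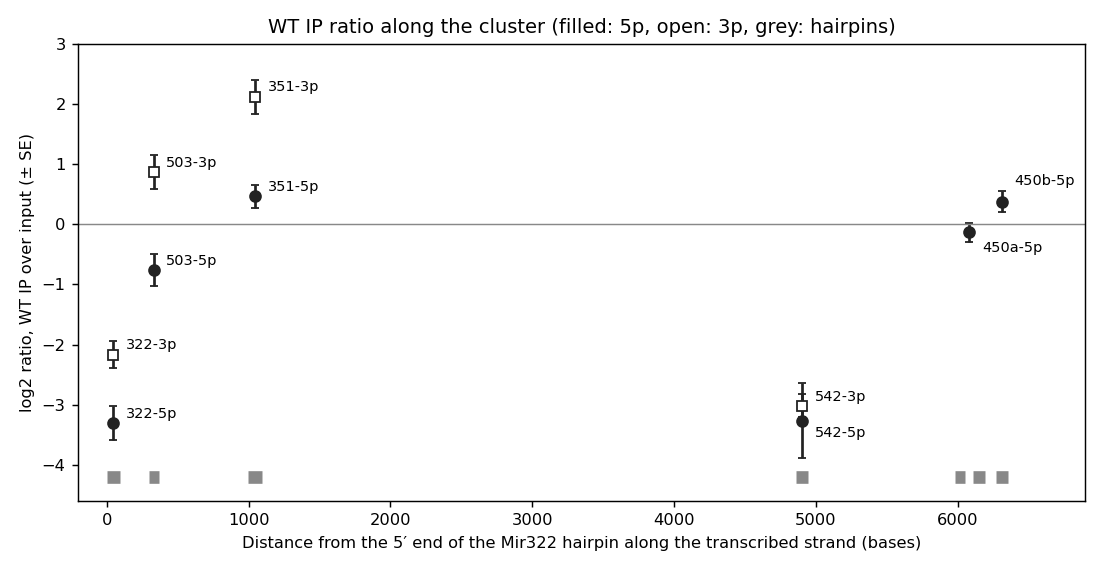
WT log2 ratio of IP over input (± SE) against the distance of each hairpin's middle from the 5′ end of Mir322 along the transcribed strand (bases), with 5p arms filled, 3p arms open and hairpins in grey; miR-450a-5p is drawn midway between its 2 hairpins. Ratios of both signs lie within the first 3 hairpins, from -3.31 for miR-322-5p to 2.12 for miR-351-3p, and the 2 arms of miR-503 have opposite signs.

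The same comparison in KD3 and KD6 cells gave the same split for most members. In KD3, 5 were lower and 4 higher, beside 36.2% and 34.4% of all miRNAs, and 9 had groups that did not overlap, beside 75.5%. In KD6, 5 were lower and 3 higher, beside 35.5% and 35.8%, and 6 did not overlap, beside 59.3%. miR-322-5p, miR-322-3p, miR-542-3p and miR-351-3p kept their direction and their side of the threshold in each of the 3 conditions under all 14 alternatives.

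In KD3, miR-322-5p had 209, 162 and 153 CPM in input and 19.8, 17.7 and 20.0 CPM in IP (log2 ratio -3.18 ± 0.28, adjusted p = 2.08e-09 by edgeR). In KD6 it had 118, 139 and 213 CPM in input and 4.04, 6.85 and 10.4 CPM in IP (log2 ratio -4.43 ± 0.31, adjusted p = 4.67e-11). The KD6 value rests in part on 10 to 56 reads per IP library and on 24 reads in replicate A of the input. miR-322-3p had log2 ratios of -1.95 ± 0.22 in KD3 and -2.76 ± 0.23 in KD6.

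miR-542-3p was again depleted, with log2 ratios of -3.00 ± 0.19 in KD3 and -2.55 ± 0.19 in KD6. miR-542-5p was 4.55-fold lower in KD3 IP (log2 ratio -2.19 ± 0.56, adjusted p = 0.00190 by edgeR). In KD6 it had 0, 3.27 and 5.60 CPM in input and 0 in each IP library. Counting 3 reads as the limit in each of those IP libraries, its mean level was at least 2.82-fold lower there, while the 0 in replicate A of the input made the groups overlap. miR-503-5p was lower in both (log2 ratio -0.64 ± 0.27 in KD3, -0.88 ± 0.28 in KD6), but its groups overlapped in KD6. Its call was lost under 5 of 14 alternatives in KD3, where leaving out IP replicate B gave -0.40 (adjusted p = 0.214 by edgeR), and under 3 of 14 in KD6.

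miR-351-3p was 4.26-fold higher in KD3 IP and 4.60-fold higher in KD6 IP, where the input of replicate A had 0 reads of it (log2 ratios 2.09 ± 0.29 and 2.20 ± 0.33). miR-351-5p was higher in IP with log2 ratios of 0.56 ± 0.19 in KD3 and 1.05 ± 0.19 in KD6, and these turned to -0.02 and -0.02 when total mapped reads set the scale. miR-503-3p was higher in KD3 (log2 ratio 1.15 ± 0.29, adjusted p = 0.00128 by edgeR), whereas in KD6 it gave 0.68 ± 0.30 (adjusted p = 0.0508) and turned to -0.47 with total mapped reads as the scale. miR-450b-5p passed the threshold narrowly in KD3 (log2 ratio 0.41 ± 0.18, adjusted p = 0.0488, lost with the replicate letter as a block at adjusted p = 0.0533) and in KD6 (0.57 ± 0.19, adjusted p = 0.00972), with -0.17 and -0.47 on the scale of total mapped reads. Its call was lost with the direction kept under 10 of 14 alternatives in KD3 and 6 in KD6. miR-450a-5p passed in neither (0.07 ± 0.16 and 0.04 ± 0.16).

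The choice of scale mattered for these smaller ratios because it moved all miRNAs together. With total mapped reads as library size, the median log2 ratio of all miRNAs was -0.38 for WT, -0.62 for KD3 and -1.14 for KD6, against -0.04, -0.03 and -0.004 with the median-ratio factors. The members then split as 5 lower and 1 higher for WT, beside 40.1% and 23.9% of all miRNAs. They split as 6 lower and 1 higher for KD3, beside 43.1% and 21.5%, and likewise for KD6, beside 51.1% and 19.2%. Reads outside any miRNA row made up 5.47% to 9.96% of mapped reads in the inputs and 14.8% to 38.2% in the IP libraries. Dropping KD6 input replicate A also lowered the KD6 median, to -0.46. Without it miR-322-5p had a log2 ratio of -5.0, miR-503-5p -1.55, miR-351-5p 0.45, miR-351-3p 1.70 and miR-503-3p 0.17, while miR-450a-5p turned to -0.46 and was called lower (edgeR adjusted p = 0.0226), as were 38.4% of all miRNAs, and miR-450b-5p fell under the threshold at 0.27.

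**Figure D3:**
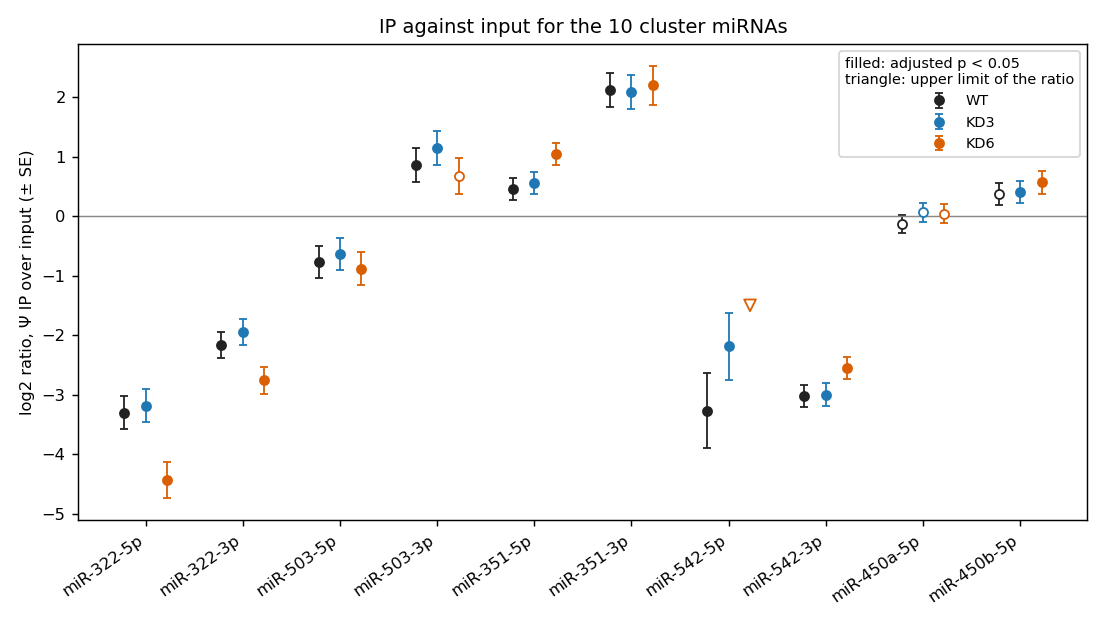
Log2 ratio of IP over input (± SE) for the 10 miRNAs in WT, KD3 and KD6, filled where the adjusted p was under 0.05; the open triangle marks the upper limit of the ratio of miR-542-5p in KD6, where each IP library had 0 reads. The order of the members was similar in the 3 conditions, from miR-322-5p between -3.18 and -4.43 to miR-351-3p between 2.09 and 2.20.

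Ratios of 2 miRNAs within a library need no scaling factor, and they separated the arms of a hairpin. miR-322-3p exceeded miR-322-5p by 4.79-fold in WT input and by 10.8-fold in WT IP. The log2 ratio of 5p over 3p was -2.46, -2.38 and -1.95 in the WT inputs and -3.73, -3.21 and -3.35 in the WT IP libraries, without overlap. Over the 3 conditions the mean change in IP was -1.35 on the log2 scale (9 IP and 9 input libraries, two-sided exact permutation within conditions p = 0.00025, the smallest it can give, adjusted p = 0.0004 over 8 ratios). The ratio shows that the arms changed unequally, not which of them moved.

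The neighbouring hairpins behaved alike. miR-503-5p exceeded miR-503-3p by 8.34-fold in WT input and 2.68-fold in WT IP, a log2 change of -1.58 over the 3 conditions (exact permutation p = 0.0005, adjusted p = 0.000667). miR-351-5p exceeded miR-351-3p by 276-fold in WT input and 86.0-fold in WT IP, a log2 change of -1.50 (exact permutation p = 0.00025, adjusted p = 0.0004). In all 3 hairpins the 5p arm therefore lost ground to the 3p arm in IP, although the 5p arm is the abundant one in miR-503 and miR-351 and the scarce one in miR-322. For miR-503 the KD6 groups overlapped. The arms of miR-542 gave a log2 change of -0.58 (exact permutation p = 0.314, adjusted p = 0.314), which became 0.51 with 3 reads added to each count instead of 0.5, so no direction can be given at the depth of miR-542-5p.

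miR-322-5p and miR-16-5p share a seed but were recovered unequally. Among the relatives with this seed described below, miR-16-5p had the highest WT log2 ratio of IP over input (1.10). miR-15a-5p, miR-15b-5p and miR-497a-5p were lower in WT IP, as miR-322-5p was, and miR-195a-5p (0.41) did not pass. In WT input miR-16-5p exceeded miR-322-5p by 2.54-fold, and in WT IP by 54.7-fold. In KD3 the figures were 1.55-fold and 37.4-fold, and in KD6 2.34-fold and 75.1-fold. The log2 ratio of miR-322-5p over miR-16-5p changed by -4.67 (exact permutation p = 0.00025, adjusted p = 0.0004), with no overlap in any condition. miR-503-5p over miR-16-5p changed by -1.73 (exact permutation p = 0.00025, adjusted p = 0.0004).

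miR-351-5p and miR-125a-5p also parted. miR-125b-5p, the other relative with this seed, had a WT log2 ratio of IP over input (0.36) nearer to that of miR-351-5p (0.46) than miR-125a-5p did (2.14). miR-125a-5p, the more abundant, exceeded miR-351-5p by 1.76-fold in WT input and 5.65-fold in WT IP, and the log2 ratio changed by -1.75 over the 3 conditions (exact permutation p = 0.00025, adjusted p = 0.0004). The miR-450 pair changed least. miR-450a-5p over miR-450b-5p had log2 ratios of 0.18, 0.36 and 0.38 in the WT inputs and -0.36, -0.07 and -0.19 in the WT IP libraries, so that in WT miR-450a-5p was the more abundant before IP and miR-450b-5p after it. In KD3 miR-450a-5p was the more abundant in all libraries, with log2 ratios of 0.56 to 0.69 in input and 0.02 to 0.56 in IP. In KD6 the ratio was -0.12, 0.59 and 0.46 in input and below 0 in each IP library. The change was -0.45 over the 3 conditions (exact permutation p = 0.001, adjusted p = 0.00114), with overlapping groups in KD3 and KD6.

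**Figure D4:**
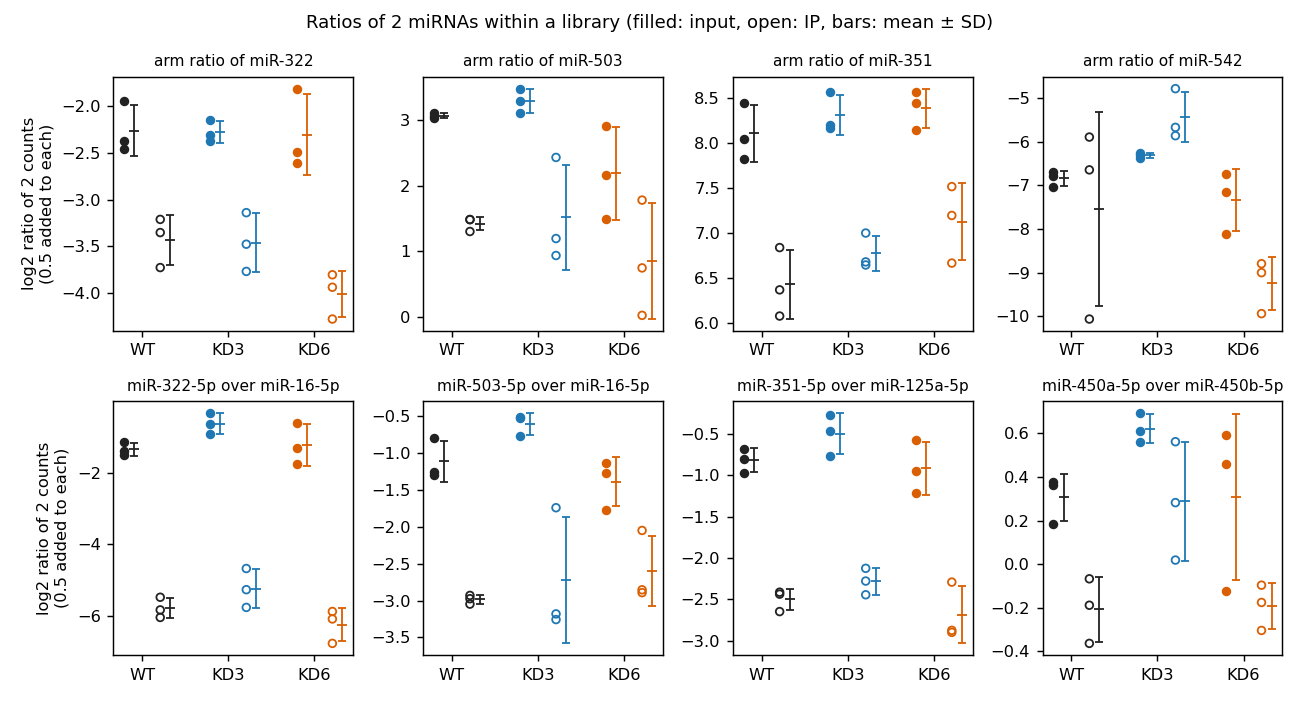
Log2 ratio of 2 counts in each library (0.5 added to each count), filled for input and open for IP, with the mean ± SD of 3 libraries beside the points. The arm ratios of miR-322, miR-503 and miR-351 and the ratios to miR-16-5p and miR-125a-5p have lower means in IP in every condition, while the arm ratio of miR-542 spreads from -10.06 to -4.79 in IP.

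Among 7 relatives by seed encoded at other loci, the WT IP was higher for 2 and lower for 3, the KD3 IP for 3 and 3, and the KD6 IP for 1 and 3. In WT their log2 ratios ran from -4.32 ± 0.57 for miR-497a-5p and -2.97 ± 0.62 for miR-15a-5p, through -1.43 ± 0.30 for miR-15b-5p, to 1.10 ± 0.33 for miR-16-5p and 2.14 ± 0.24 for miR-125a-5p (edgeR adjusted p = 0.00541 or lower for these 5). miR-195a-5p (0.41 ± 0.31) and miR-125b-5p (0.36 ± 0.26) did not pass. miR-322-5p thus lay within the range of fitted ratios of the miRNAs that share its seed, near miR-15a-5p. The latter had -1.97 ± 0.61 in KD3 and -4.30 ± 0.70 in KD6. The low end of this range rests on few reads, so its size is uncertain. In WT IP replicates A, B and C, miR-497a-5p had 0, 2 and 4 reads and miR-15a-5p 10, 10 and 9. miR-15a-5p had 4, 11 and 22 reads in KD3 IP and 0, 0 and 16 in KD6 IP. miR-125b-5p lay near miR-351-5p in WT and KD3 (0.67 ± 0.26) and gave 0.15 ± 0.26 in KD6. Ratios to these 2 relatives within a library were not tested. miR-497a-5p, the relative with the lowest ratio, is the only one of these 7 that starts with C as miR-322-5p does. That feature was picked after the values were seen.

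Base content was compared with the ratio as a description. miR-322-3p and miR-351-3p held 2 uridines each, the fewest, and had WT log2 ratios of -2.17 and 2.12. miR-450a-5p held 11, the most, and had -0.13. miR-351-3p (66.7% GC) and miR-351-5p (62.5%) were the richest in GC, and miR-542-3p, miR-450a-5p and miR-450b-5p the poorest at 31.8% each. Across the 475 tested miRNAs with a RefSeq sequence, the WT log2 ratio had a Pearson r of 0.20 with GC content and 0.06 with uridine content, over miRNAs that share the same libraries. Over the 10 members the values for GC content were 0.37 in WT, 0.42 in KD3 and 0.15 in KD6 (Spearman rho 0.41, 0.47 and 0.37), and for uridine content 0.08 in WT. The letters UNUAA or UNUAG, read on the miRNA strand only, were in 0 of the 10 members and in 10.4% of 1679 mature sequences.

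As a sum, the 10 miRNAs took 0.465%, 0.456% and 0.446% of all miRNA reads in WT input libraries, but 0.348%, 0.342% and 0.354% in the IP libraries, so the groups did not overlap. The KD3 means were 0.474% ± 0.018 in input and 0.377% ± 0.035 in IP (SD, n = 3). The KD6 means were 0.453% ± 0.124 and 0.286% ± 0.060, with overlap, since replicate A of the input had 0.309%. Averaged over the conditions the log2 share differed by -0.46 between IP and input, and by -0.16 without the 2 arms of miR-322. By condition the difference was -0.39 in WT, -0.34 in KD3 and -0.64 in KD6. A share is on the scale of library size without factors. On that scale the median log2 ratio of all miRNAs was -0.19, -0.18 and -0.81. The fall in share is thus not by itself a loss particular to the cluster.

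The make-up of these reads shifted with the IP. miR-351-5p made up 36.4% ± 0.12 of what the WT inputs held of the cluster and 59.1% ± 5.04 in the IP libraries. miR-542-3p went from 16.7% ± 0.13 to 2.43% ± 0.14 and miR-322-3p from 16.1% ± 1.5 to 4.24% ± 0.26. The miR-450 pair together with miR-351-5p held most of the cluster's reads in each input group as well as in each IP group.

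**Figure D5:**
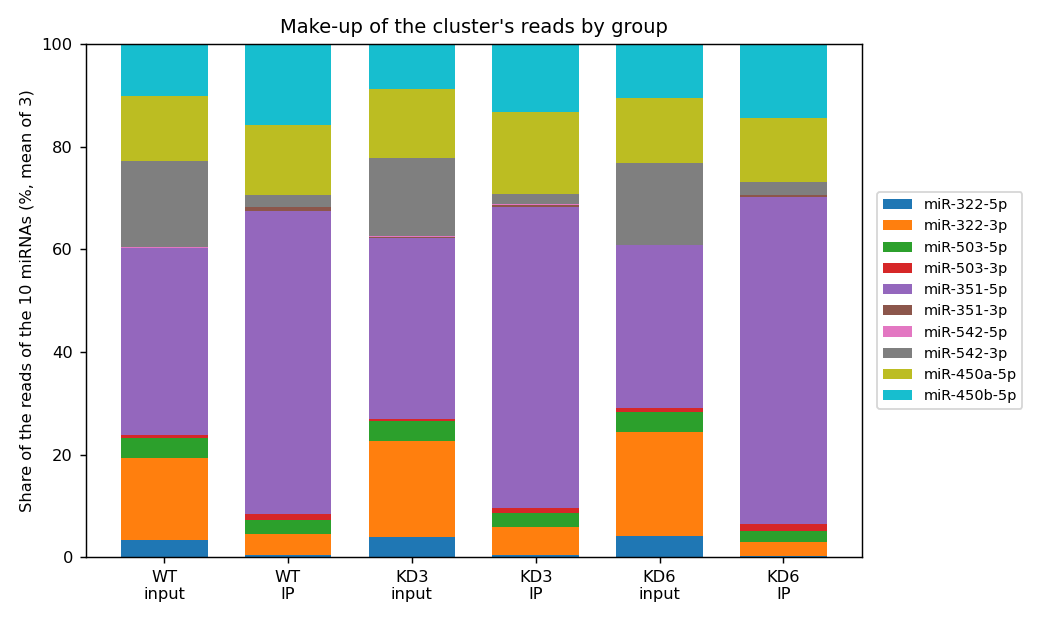
Share of the reads of the 10 miRNAs taken by each (%, mean of 3 libraries) in the 6 groups. miR-351-5p widens from 36.4% to 59.1% between WT input and WT IP and miR-542-3p narrows from 16.7% to 2.43%, with the same shift in KD3 and KD6.

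The next question was whether the ratio of IP over input differed between the knockdown conditions and WT. The labels give no day for the WT libraries, and no mock knockdown was among the 18 libraries. An effect of Pus1 thus cannot be told apart from time in culture or from the knockdown procedure. For no member did the change in ratio between conditions pass the threshold. In KD3 against WT, edgeR called 0 of the members and 0% of all miRNAs, and DESeq2 called 0. There 0 members had an unadjusted p under 0.05, beside 16 of all 550 miRNAs, and the changes in log2 ratio ran from -0.03 to 1.08. In KD6 against WT edgeR again called 0 members and 0% of all. An unadjusted p under 0.05 was held by 3 members, beside 119 of 550. DESeq2 called 0 members, beside 32 of the 413 miRNAs that its own filter left. In KD6 against KD3 edgeR called 0 members and 0.182% of all. Here 3 members had an unadjusted p under 0.05, beside 112 of 550, and DESeq2 called 1, beside 31 of 343. These counts did not set the cluster apart from the whole table.

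The member closest to the threshold was miR-322-5p. In KD6 its log2 ratio differed from that in WT by -1.13 ± 0.39 (adjusted p = 0.126 by edgeR), and from that in KD3 by -1.25 ± 0.39 (adjusted p = 0.116). The median change of all miRNAs was 0.25 and 0.16 in these comparisons, so that relative to the median the values were -1.38 and -1.41. The second was called by DESeq2 (adjusted p = 0.0338) and by edgeR without replicate A of the KD6 input (-1.48, adjusted p = 0.0371), and both were called with KD6 IP replicate C left out (-1.62 against WT, adjusted p = 0.0221, and -1.72 against KD3, adjusted p = 0.0194). On the scale of total mapped reads the first was also called (-1.87, adjusted p = 0.0371). These alternatives also called more of the whole table. For KD6 against KD3, DESeq2 called 9.04% of the 343 miRNAs that its own filter left, with 9 of the members among them. In the same comparison edgeR called 3.52% of all tested miRNAs without the input library and 10.6% without the IP library. For KD6 against WT, edgeR called 9.61% without the IP library and 8.98% with total mapped reads. The partner arm miR-322-3p gave -0.81 ± 0.30 against KD3 (adjusted p = 0.138), and -1.05 when KD6 IP replicate C was left out (adjusted p = 0.0286). miR-351-5p gave a value of the other sign against WT (0.59 ± 0.26, adjusted p = 0.214), which turned to -0.004 with library size alone as the scale. miR-542-5p had 0 reads in each KD6 IP library, so its fitted change is no measure of size.

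The input libraries addressed whether the level of the cluster itself differed between the conditions, with the same limit from the missing matched control. edgeR called 0 members in KD3 against WT, beside 0% of all miRNAs, 0 in KD6 against WT, beside 3.09%, and 0 in KD6 against KD3, beside 4%. DESeq2 also called 0 members in each, beside 12 of 319, 31 of 413 and 34 of 437 miRNAs that its own filter left. An unadjusted p under 0.05 was held by 0, 1 and 3 members, beside 44, 78 and 97 of all 550 miRNAs. In bulk libraries such as these, fewer cells making a miRNA and less of it per cell cannot be told apart. In KD3 against WT the log2 differences ran from -0.12 to 0.55, and a fit to those 6 libraries alone called miR-322-3p (0.40, adjusted p = 0.0230) and miR-450a-5p (0.27, adjusted p = 0.0376), beside 14.2% of all miRNAs in that fit.

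The largest input difference with an unadjusted p under 0.05 was that of miR-503-3p. It had 20.8, 17.0 and 18.4 CPM in WT, 21.5, 17.9 and 15.1 CPM in KD3, and 24.7, 35.2 and 28.2 CPM in KD6. Every KD6 value lay above every WT and KD3 value, but replicate A of KD6 rested on 5 reads. On the log2 scale the difference was 0.76 ± 0.30 from KD3 and 0.72 ± 0.30 from WT. Neither passed (adjusted p = 0.189 and 0.259 by edgeR). miR-351-5p (-0.39 ± 0.19) and miR-450a-5p (-0.35 ± 0.16) were the others with an unadjusted p under 0.05, in KD6 against KD3, at adjusted p = 0.281 and 0.262. The summed share of the cluster differed between the input groups by less than the spread of the KD6 libraries.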

How the data were processed

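The authors trimmed the 3′ adapter, ran reads through SeqImp with the mm10 genome and miRBase, and deposited estimated counts per mature miRNA and precursor locus, not normalized, in which reads matching several loci are divided. Rows of 1 mature miRNA (2045 rows, 1907 miRNAs) were summed and the estimated counts rounded. They were tested with edgeR 4.0.16 in R 4.3.3 (median-ratio RLE factors as in the study, filterByExpr, glmQLFit and glmQLFTest, 6 group means, 18 libraries), with Benjamini-Hochberg adjustment over 550 miRNAs and an adjusted p under 0.05 as threshold. The row of total mapped reads names no miRNA and stayed out of tests. Reads in no miRNA row were 5.47% to 38.2% of the totals. Ratios within a library had 0.5 added to each count and were tested by exact permutation within conditions in Python 3.11.15. CPM uses effective library sizes, and limits of 3 reads cover counting error only. Each SE of an edgeR log2 ratio is its absolute value divided by the square root of the quasi-likelihood F statistic. It therefore includes the spread between libraries. The naming rule took all members, the remaining arms of their hairpins, 7 relatives by seed, and the 5 miRNAs whose levels were most like their sum. Members and lists were chosen with earlier results of these data known. The procedure was tested on simulated counts. Replicate letters were checked as pairs from the correlation of deviations from group means over 189 miRNAs. The correlation was over 0.1 for all 3 letters between the WT and KD3 inputs (0.20 to 0.60) and between the KD3 and KD6 inputs (0.23 to 0.33), a pairing of these inputs seen in the values and not stated in the labels. It was not so between the WT and KD6 inputs (0.04 to 0.42). Nor was it so between IP and input in WT (-0.15 to 0.02), KD3 (-0.07 to 0.38) or KD6 (-0.22 to 0.53). Alternatives were TMM factors, library size or total mapped reads, no filter, the largest row per miRNA, the replicate block, only the libraries compared, DESeq2 1.42.0, another pseudocount and each library left out.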

Additional observations from a re-analysis of the deposited data

How the results depend on the processing

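The median-ratio scale and replicate A of the KD6 input, with 241109 reads, limit these results most. miR-450a-5p in KD3 turned from 0.07 to -0.17 with TMM factors, -0.10 with library size, -0.52 with total mapped reads and -0.10 with only the libraries compared. In KD6 it turned from 0.04 to -0.23, -0.70 and -1.03 with the first 3 of these, and leaving out each library gave -0.46 to 0.14. With library size alone, miR-503-3p (-0.13) and miR-450b-5p (-0.14) in KD6 and the KD6 against WT change of miR-351-5p (-0.0042) turned. With total mapped reads, miR-351-5p and miR-450b-5p turned in KD3 (-0.021 and -0.17), as did miR-503-3p, miR-351-5p and miR-450b-5p in KD6 (-0.47, -0.024 and -0.47) and the change of miR-351-5p against WT (-0.15). The cause was not tested beyond the shift of all miRNAs given above. Counts of members called moved in 4 cases. With only the libraries compared there were 5 in place of 8 for KD6 IP, with 9 members tested. Of all miRNAs that fit called 272 of 421, in place of 392 of 550. The same setting gave 2 in place of 0 for KD3 against WT input, beside 75 of 530 miRNAs. For the change in ratio there were 2 in KD6 against WT with total mapped reads, beside 51 of 568. DESeq2 gave 1 in KD6 against KD3, beside 31 of 343. Leaving out each library gave 0 to 1 and 0 to 2 for these changes. The difference in summed share moved to -0.16 without miR-322. The arm ratio of miR-542 turned to 0.51 with a pseudocount of 3. Over all miRNAs, DESeq2, with its own filter on low counts, called 32 and 31 changes in ratio in KD6 against WT and against KD3 where edgeR called 0 and 1, and 12, 31 and 34 input differences where edgeR called 0, 17 and 22. The replicate block gave 8 members called in WT IP, as without it, beside 377 of all 550 miRNAs with it and 379 without. It changed no call of a member other than that of miR-450b-5p in KD3.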

Other observations

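The remaining arms of the miR-450 hairpins were measured beside the members. miR-450b-3p, the partner of miR-450b-5p, had 35.3 to 45.6 CPM in WT input and 50.3 to 65.8 CPM in WT IP, which did not overlap (log2 ratio 0.43 ± 0.22, edgeR adjusted p = 0.0860). miR-450a-1-3p had 3.06 to 3.72 CPM in WT input and 0.757 to 3.91 CPM in WT IP (log2 ratio -0.63 ± 0.54, adjusted p = 0.303). Neither passed the threshold in any of the 9 comparisons, and miR-450a-2-3p was under the filter on low counts.

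Of 144 miRNAs outside the cluster with a mean of at least 100 CPM, the 5 whose log2 CPM was most like the summed level of the members over the 18 libraries were miR-145a-5p (Pearson r of 0.72), miR-411-5p (0.60), miR-382-3p (0.55), miR-329-5p (0.55) and miR-199b-3p (0.54). The libraries share their scaling factors and fall into input and IP groups, so these values describe likeness of level only. In WT all 5 had log2 ratios of IP over input below 0, from -2.35 for miR-382-3p to -0.50 for miR-145a-5p. The ratios ran from -2.28 for miR-382-3p to -0.16 for miR-199b-3p in KD3. In KD6 they ran from -2.48 for miR-382-3p to 0.12 for miR-329-5p. The 5 were picked for likeness over input and IP libraries together, so the sign of their ratios follows in part from that choice.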
